A study of Drosophila melanogaster with 14 samples.

Results

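The genes described here were those far higher in libraries labelled GAF RNAi than in their own controls, and there were 54 of them among the 17868 genes of the count table. A gene was taken when its mean over the 3 GAF RNAi libraries was at least 3 CPM (counts scaled to the library's total count) and at least 6 times its mean over the 3 GAF controls. Of 6569 genes with at least 3 CPM in GAF RNAi, 66 met both thresholds (1.00%), and 12 of these, non-coding antisense and long RNAs and a few named symbols or symbol families, were left out by the rule. The same thresholds turned round found 78 lowered genes among 6419 with at least 3 CPM in the controls (1.22%). The members were thus chosen by their CPM in the GAF experiment, and because these values were used, they are described with no test, and tests were made in the HDAC1 and Osa experiments only.

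RNA was measured in 14 libraries of type II neural stem cells (neuroblasts) from the larval brain of Drosophila melanogaster, amplified from small pools of cells. The first experiment had 3 libraries labelled GAF RNAi and 3 wild-type controls. The second had 2 labelled HDAC1 RNAi and 2 wild-type controls, and the third 2 labelled Osa overexpression and 2 wild-type controls. The series text speaks of an Osa knockdown where the labels say overexpression. The RNAi and overexpression lines, the driver, the larval stage and the collection of the cells were not stated in the labels. Whether the replicates are separate broods or repeats of 1 collection is not stated, and the p-values below therefore speak only of library-to-library spread, which can be technical.

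GAF, the GAGA factor encoded by Trl, is a zinc finger protein that binds GA-rich DNA, opens chromatin at promoters and enhancers and has been tied to both active genes and Polycomb-repressed genes. HDAC1 is a histone deacetylase, and Osa is a DNA-binding subunit of the BAP form of the Brahma (SWI/SNF) remodelling complex. Type II neuroblasts divide to renew themselves and to make intermediate progenitors, whose descendants become neurons and glia. Neuropeptide genes, transmitter receptor genes and germline genes are known chiefly from other cells than neural stem cells.

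Total counts ran from 31788351 to 51505597 per library. Trl stood at 6.07, 5.59 and 4.83 CPM in the GAF controls and 5.40, 5.93 and 4.27 CPM in GAF RNAi, and 77.8% of its exonic bases are shared with overlapping genes on the same strand, so its count is uncertain. HDAC1 stood at 63.7 and 74.4 CPM in the HDAC1 controls and at 78.0 and 31.4 CPM in the libraries labelled HDAC1 RNAi replicates 1 and 2, so replicate 1 was not below its controls on this scale. After TMM scaling, which corrects for the composition of a library, HDAC1 was 70.9 and 79.2 CPM in controls and 59.7 and 34.7 CPM in RNAi, below the controls in both. The gene osa stood at 132 and 136 CPM in the Osa controls and 334 and 313 CPM in the overexpression libraries, which is the direction of the label and not of the series text. The neuroblast gene dpn was between 35.0 and 51.6 CPM in the GAF libraries and between 43.4 and 62.8 CPM in the Osa libraries, but between 1.80 and 8.75 CPM in the HDAC1 libraries. The marker wor was between 11.3 and 75.8 CPM in the HDAC1 libraries and between 164 and 328 CPM in the GAF and Osa libraries. For btd these ranges were 3.38 to 11.8 CPM and 31.5 to 99.4 CPM. By contrast, pnt was highest in the HDAC1 controls, at 475 and 464 CPM, and was 121 and 197 CPM in HDAC1 RNAi. In Osa, pnt was 318 and 331 CPM in controls and 110 and 146 CPM in overexpression. Summed levels of 14 type II neuroblast markers, which hide such differences, were between 2470 and 4630 CPM in all 14 libraries. Those of 22 mature neuron markers were 597 to 767 CPM in GAF controls, 939 to 1270 in GAF RNAi, 1210 to 1410 in HDAC1 controls, 2190 and 4090 in HDAC1 RNAi, 2120 to 2520 in Osa controls and 3390 to 3680 in Osa overexpression, with no marker of that list at 0 throughout the GAF controls. In the same GAF libraries, 12 ganglion mother cell and early neuron markers summed to 725 to 1110 CPM in controls and 1510 to 2610 CPM in RNAi. The sum of 14 glial markers was 699 to 841 CPM in controls and 204 to 237 CPM in RNAi, with 1 glial marker at 0 in the controls. Not every glial marker followed that sum. The glial gene repo was 0.227, 0.136 and 0.254 CPM in GAF controls and higher in RNAi, at 1.32, 1.81 and 0.349 CPM. The part of these cell types in the members' levels was not tested. In such bulk libraries, more cells of a type and more RNA per cell cannot be told apart.

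Most members had little RNA in the controls, though VepD, CG31997 and tut had control means above 10 CPM. Summed over all 54, they took 87.8 to 121 CPM in the GAF controls and 751 to 1021 CPM in GAF RNAi. The median member had a mean of 0.562 CPM in the controls and 7.90 CPM in RNAi, and 19 members reached at least 10 CPM. The ratio of means had a median of 9.23 and ran from 6.11 to 351 among the members with control counts. A ratio of at least 10 was found for 24 members and of at least 20 for 14. For 50 members every RNAi library was above every control. The ratio of 6 that chose the members favours such a separation, and no share over all genes is given beside this count. The groups overlapped for NPF, CG9360, CG11382 and CG14655. In 14 members the highest RNAi library held more than the other 2 together, and that library was replicate 1 for 9 of them, replicate 2 for 1 and replicate 3 for 4. By type, 50 were protein-coding, 3 were pseudogenes and 1 was a ribosomal RNA precursor. Numbered symbols of the CG or CR kind made up 32 of the 54, so that many members have no described role. Counts of these genes from 1 to 49 were even in 64.4% of cases, so counting intervals are narrower than the true error.

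**Figure D1:**
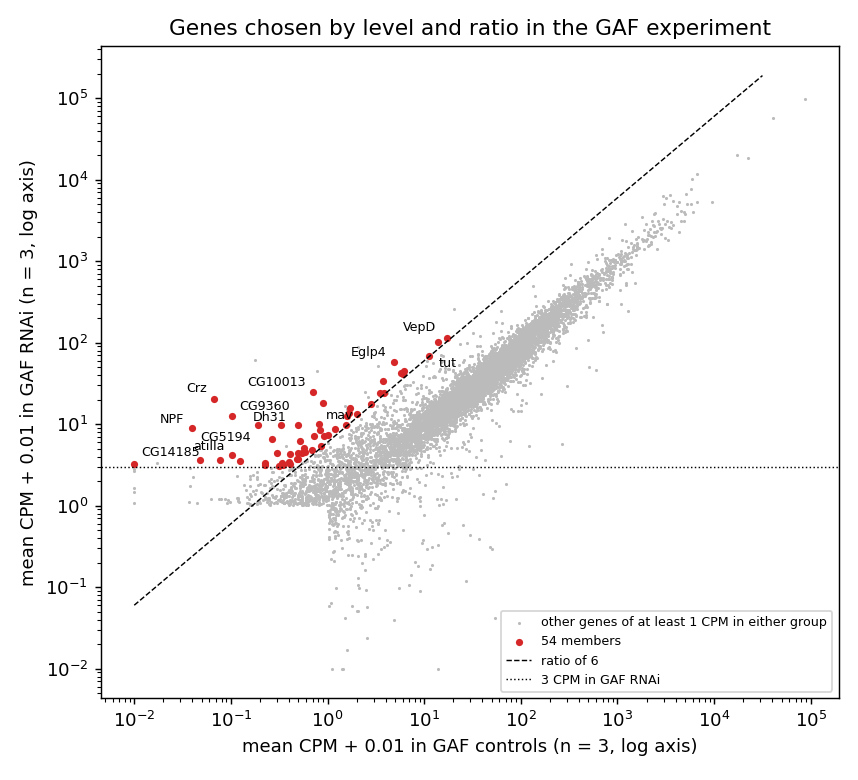
Mean CPM plus 0.01 of each gene in the 3 GAF controls (horizontal, log axis) and the 3 GAF RNAi libraries (vertical, log axis), with the 54 members in red, other genes of at least 1 CPM in either group in grey, and the thresholds of 6 times and 3 CPM as lines. The members lie in the upper left, from CG14185 with no control counts to VepD at a mean of 113 CPM in RNAi, and grey points above both lines are the 12 symbols left out.

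**Figure D2:**
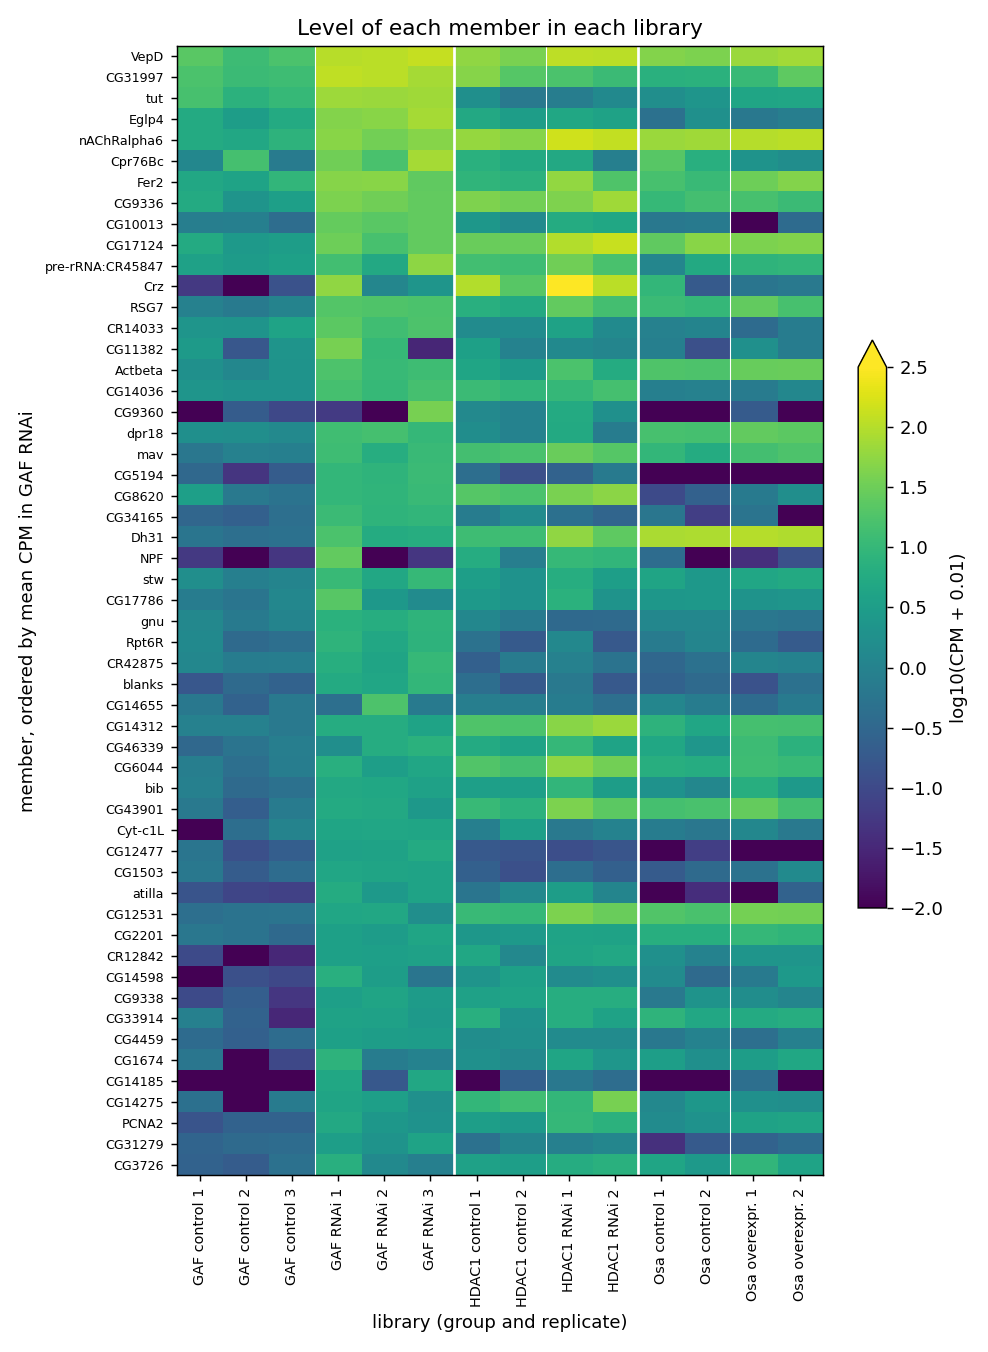
Level of each of the 54 members in each of the 14 libraries, as log10 of CPM plus 0.01, with members ordered by mean CPM in GAF RNAi. Some rows are brightest in the 3 GAF RNAi columns (tut, CG10013, gnu), while others are as bright or brighter in the HDAC1 or Osa columns (nAChRalpha6, Dh31, CG12531).

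In the HDAC1 experiment the members tended to lie higher in RNAi than in controls, but none passed the test. Of 52 members that passed the filter on low counts, 0 had an adjusted p under 0.05 in edgeR's quasi-likelihood test with Benjamini-Hochberg adjustment over 10299 genes, against 0% of all genes called higher and 0.0971% called lower. At an unadjusted p under 0.05, 15 members were higher and 3 lower, where 7.51% of all genes were higher and 4.36% lower. DESeq2 called 5 members, all higher (CG12531, CG14312, CG17124, CG43901 and Fer2), beside 162 genes higher and 132 lower of 10299 (2.85%), and limma-voom called 0. Leaving out the library labelled HDAC1 RNAi replicate 1, or replicate 2, gave 15 called members in either case, beside 14.4% and 32.1% of all genes (28.8% and 28.3% of the members tested), and leaving out a control gave 0. Both RNAi libraries were above both controls in CPM for 25 of the 52, where 29.4% of all genes were, and below both for 7, where 13.8% were. After TMM scaling these were 24 members beside 22.6% of all genes and 7 beside 20.5%. The median log2 fold change of the members was 0.60, beside 0.06 for all genes tested, and 0.87 beside 0.33 with library totals alone. A log2 fold change of at least 1 was found in 17 members (32.7%, beside 11.2% of all genes) and of at most -1 in 7 members, beside 8.36% of all genes. CG12477 and CG1503 were below the filter.

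In the Osa experiment 3 members passed the test out of 47, with 9156 genes tested. Fer2 and CG12531 rose and Cpr76Bc fell, by edgeR's quasi-likelihood test with adjusted p of 0.0109, 0.0346 and 0.0068. Of all genes, 8.86% were called higher and 12.2% lower, or 21.1% in either direction. At an unadjusted p under 0.05, 10 members were higher and 2 lower, beside 17.9% and 18.9% of all genes. Both overexpression libraries were above both controls in CPM for 23 of the 47, where 51.4% of all genes were, and below both for 7, where 18.9% were. After TMM scaling these were 20 members beside 33.7% of all genes and 8 beside 32.1%, and Dh31 turned from above its controls to below them. The median log2 fold change was 0.32, beside 0.05 for all genes. Without composition scaling, with library totals alone, 12 members were called (25.5%, beside 27.3% of all genes) and the median of all genes moved to 0.32 and that of the members to 0.59. Below the filter were CG12477, CG14185, CG31279, CG5194, CG9360, NPF and atilla. Of the 22 mature neuron markers 4 rose in the same edgeR test. Of 12 ganglion mother cell and early neuron markers, at a sum of 1720 to 1870 CPM in Osa controls and 3320 to 3350 CPM in overexpression, 7 rose. Markers of other cell types moved too. Of 12 intermediate progenitor markers 7 rose and 2 fell, with sums of 815 to 834 CPM in controls and 1240 to 1530 CPM in overexpression. Of 13 glial markers tested, 3 rose and 1 fell. Their part in the members' values was not tested.

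No member passed the test of a difference between the responses to HDAC1 RNAi and Osa overexpression. Of 53 members, 0 had an adjusted p under 0.05 in edgeR's quasi-likelihood test of the difference over 10695 genes, beside 0.00935% of all genes. At an unadjusted p under 0.05, CG10013, CG17124, CG43901 and Dh31 had the larger log2 fold change in HDAC1 RNAi, beside 2.94% of all genes, and CG31997 had the larger one in Osa overexpression, beside 3.24%. DESeq2 called CG31997 alone, and limma-voom called 0. Of 46 members tested in both experiments, 22 had log2 fold changes above 0 in both (47.8%, beside 39.4% of 8877 genes), 12 were above 0 in HDAC1 RNAi only, 5 in Osa overexpression only and 7 in neither.

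**Figure D3:**
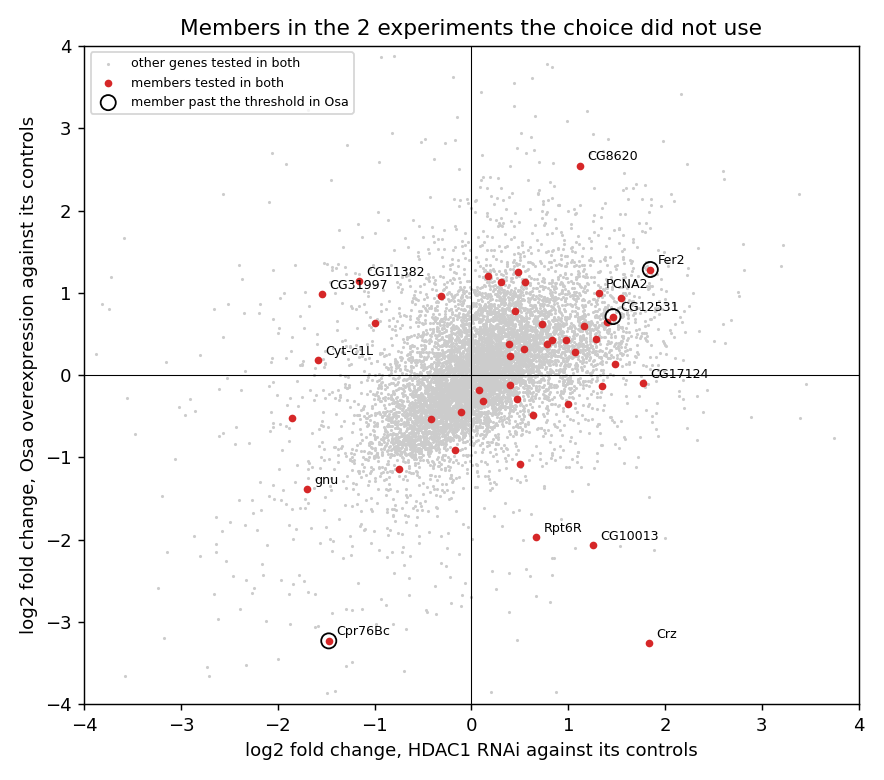
Log2 fold change of each gene in HDAC1 RNAi (horizontal) and Osa overexpression (vertical), each against its own 2 controls, with the 46 members tested in both in red, other genes in grey and the 3 members past the threshold in Osa circled. Of the members, 22 lie in the upper right, Crz and CG10013 lie low on the right, CG31997 lies high on the left, and 50 other genes are outside the axes.

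The 3 neuropeptide genes among the members were all uneven between libraries. Corazonin (Crz), a peptide made by a few brain neurons and linked to stress and growth, had 2, 0 and 6 counts in the GAF controls, or 0.0455, 0 and 0.127 CPM. It stood at 57.3, 1.14 and 2.18 CPM in GAF RNAi. The 3 RNAi libraries were above all controls, but 1 of them carried most of the signal. The ratio of pooled values was 329 (95% exact interval 167 to 764, for counting error only).

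Crz reached higher levels elsewhere, at 95.1 and 21.8 CPM in the HDAC1 controls and 441 and 109 CPM in HDAC1 RNAi. In the Osa controls it was 9.34 and 0.176 CPM and in overexpression 0.557 and 0.644 CPM. Both HDAC1 RNAi libraries were above both controls, while the Osa groups overlapped. The log2 fold change was 1.83 ± 0.69 (SE) in HDAC1 RNAi (adjusted p = 0.324) and -3.26 ± 1.61 in Osa (adjusted p = 0.216, edgeR). Summed ring gland markers, of an endocrine organ attached to the brain, were 497 and 14.6 CPM in the HDAC1 controls and 720 and 64.0 CPM in HDAC1 RNAi, so replicate 1 of each group was the higher for these markers as for Crz, and at most 5.98 CPM in the GAF and Osa libraries. Their part in the level of Crz was not tested.

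Neuropeptide F (NPF), a feeding and reward peptide, had 2, 0 and 2 counts in the GAF controls. It stood at 26.8, 0 and 0.0410 CPM in GAF RNAi. The whole difference lay in RNAi replicate 1, and the other 2 RNAi libraries were within the control range. In the HDAC1 experiment NPF stood at 6.04 and 0.821 CPM in controls and 10.5 and 9.05 CPM in RNAi. These groups did not overlap, and the log2 fold change was 1.25 ± 0.75 (edgeR adjusted p = 0.584).

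Diuretic hormone 31 (Dh31), a peptide of gut and brain cells that acts on fluid secretion and sleep, was higher in every GAF RNAi library. It stood at 0.546, 0.427 and 0.466 CPM in controls and 17.0, 5.75 and 6.47 CPM in RNAi. Its level in the wild-type controls differed between experiments, at 12.5 and 12.7 CPM in the HDAC1 controls and 83.9 and 89.5 CPM in the Osa controls. The HDAC1 controls were above GAF RNAi replicates 2 and 3, and the Osa controls were above all 3. HDAC1 RNAi libraries held 56.7 and 24.0 CPM, with a log2 fold change of 1.35 ± 0.41 (edgeR adjusted p = 0.224). Osa overexpression libraries held 98.3 and 93.4 CPM, above the controls on this scale and below them after TMM scaling, with a log2 fold change of -0.13 ± 0.15 (edgeR adjusted p = 0.558). The difference of the responses was 1.47 ± 0.43 (edgeR adjusted p = 0.738).

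Both TGF-beta family ligands among the members, Actbeta and mav, were higher in all GAF RNAi libraries. Actbeta encodes an activin-type ligand that neurons release and that signals through the Baboon receptor. It stood at 1.77, 1.22 and 2.01 CPM in GAF controls and 17.6, 11 and 12.5 CPM in RNAi. The gene mav encodes maverick, another ligand of the family. Its levels were 0.591, 0.932 and 0.869 CPM in GAF controls and 12.4, 6.26 and 11 CPM in RNAi. Neither gene's groups overlapped.

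The ligands were also higher without overlap in both other experiments, as were 21% of all genes in CPM and 13.4% after TMM scaling. Neither ligand passed the test. Actbeta was 4.36 and 2.84 CPM in HDAC1 controls and 16.7 and 5.76 CPM in RNAi (log2 fold change 1.28 ± 0.53, edgeR adjusted p = 0.368). In the Osa experiment Actbeta was 18.2 and 17.2 CPM in controls and 28.8 and 29.4 CPM in overexpression (0.44 ± 0.20, edgeR adjusted p = 0.146). Levels of mav were 14.4 and 16.2 CPM in HDAC1 controls and 30.2 and 20.2 CPM in RNAi (0.45 ± 0.39, edgeR adjusted p = 0.75). The Osa controls had as much Actbeta as the GAF RNAi libraries, and the HDAC1 controls had more mav than any of them. Osa overexpression gave 14.4 and 17.8 CPM of mav against 9.56 and 5.96 CPM in controls (0.78 ± 0.31, edgeR adjusted p = 0.102).

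Among genes of neuronal signalling and recognition, nAChRalpha6 and RSG7 were higher without overlap in both treatments outside the GAF experiment that chose them. So were 21% of all genes tested in both in CPM, and 13.4% after TMM scaling. The nicotinic acetylcholine receptor subunit gene nAChRalpha6 stood at 5.57, 4.91 and 8.18 CPM in GAF controls and 49.6, 35.3 and 48.5 CPM in RNAi. It was 61.4 and 48.3 CPM in HDAC1 controls and 151 and 122 CPM in RNAi (log2 fold change 1.07 ± 0.39, edgeR adjusted p = 0.31). In the Osa experiment it was 67.2 and 73.3 CPM in controls and 98.7 and 107 CPM in overexpression (0.27 ± 0.15, edgeR adjusted p = 0.225). No group of nAChRalpha6 overlapped its control, and the controls of the other experiments already reached the GAF RNAi level.

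RSG7, a regulator of G-protein signalling of the R7 type, stood at 0.955, 0.718 and 1.02 CPM in GAF controls and 19.6, 17.9 and 16.8 CPM in RNAi, among the tightest of the members. It was 7 and 5.48 CPM in HDAC1 controls and 26.6 and 14.2 CPM in RNAi (1.40 ± 0.45 on the log2 scale, edgeR adjusted p = 0.239). Osa controls held 11.8 and 10.1 CPM and overexpression 25.9 and 15.6 CPM (0.65 ± 0.29, edgeR adjusted p = 0.135). Here too the groups did not overlap in any experiment. The immunoglobulin-domain gene dpr18, of the dpr family of neuronal recognition proteins, stood at 1.75, 1.69 and 1.29 CPM in GAF controls and 13.1, 14.7 and 9.97 CPM in RNAi. It was 15.6 and 15.1 CPM in Osa controls and 26.3 and 23.7 CPM in overexpression (0.43 ± 0.22, edgeR adjusted p = 0.186), while its HDAC1 groups overlapped.

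Fer2, a basic helix-loop-helix transcription factor needed in dopaminergic neurons, was higher in both treatments outside the GAF experiment that chose it. It stood at 4.96, 4.12 and 9.07 CPM in GAF controls and 47.8, 50.4 and 25.3 CPM in RNAi. In the HDAC1 experiment it was 8.74 and 7.74 CPM in controls and 58.2 and 18.2 CPM in RNAi, with a log2 fold change of 1.85 ± 0.47 (edgeR adjusted p = 0.167). In the Osa experiment it was 15.2 and 11.3 CPM in controls and 31.6 and 46.3 CPM in overexpression, and it rose by 1.28 ± 0.26 (edgeR adjusted p = 0.0109). No treated library of Fer2 overlapped its controls. In both other experiments 21% of all genes were likewise higher without overlap in CPM, and 13.4% after TMM scaling. The Osa call was lost when control replicate 2 was left out (adjusted p = 0.0529) and in 1 fit of all 14 libraries (adjusted p = 0.142), both by edgeR. The responses to HDAC1 RNAi and Osa overexpression differed by 0.56 ± 0.60 (edgeR adjusted p = 0.975).

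**Figure D4:**
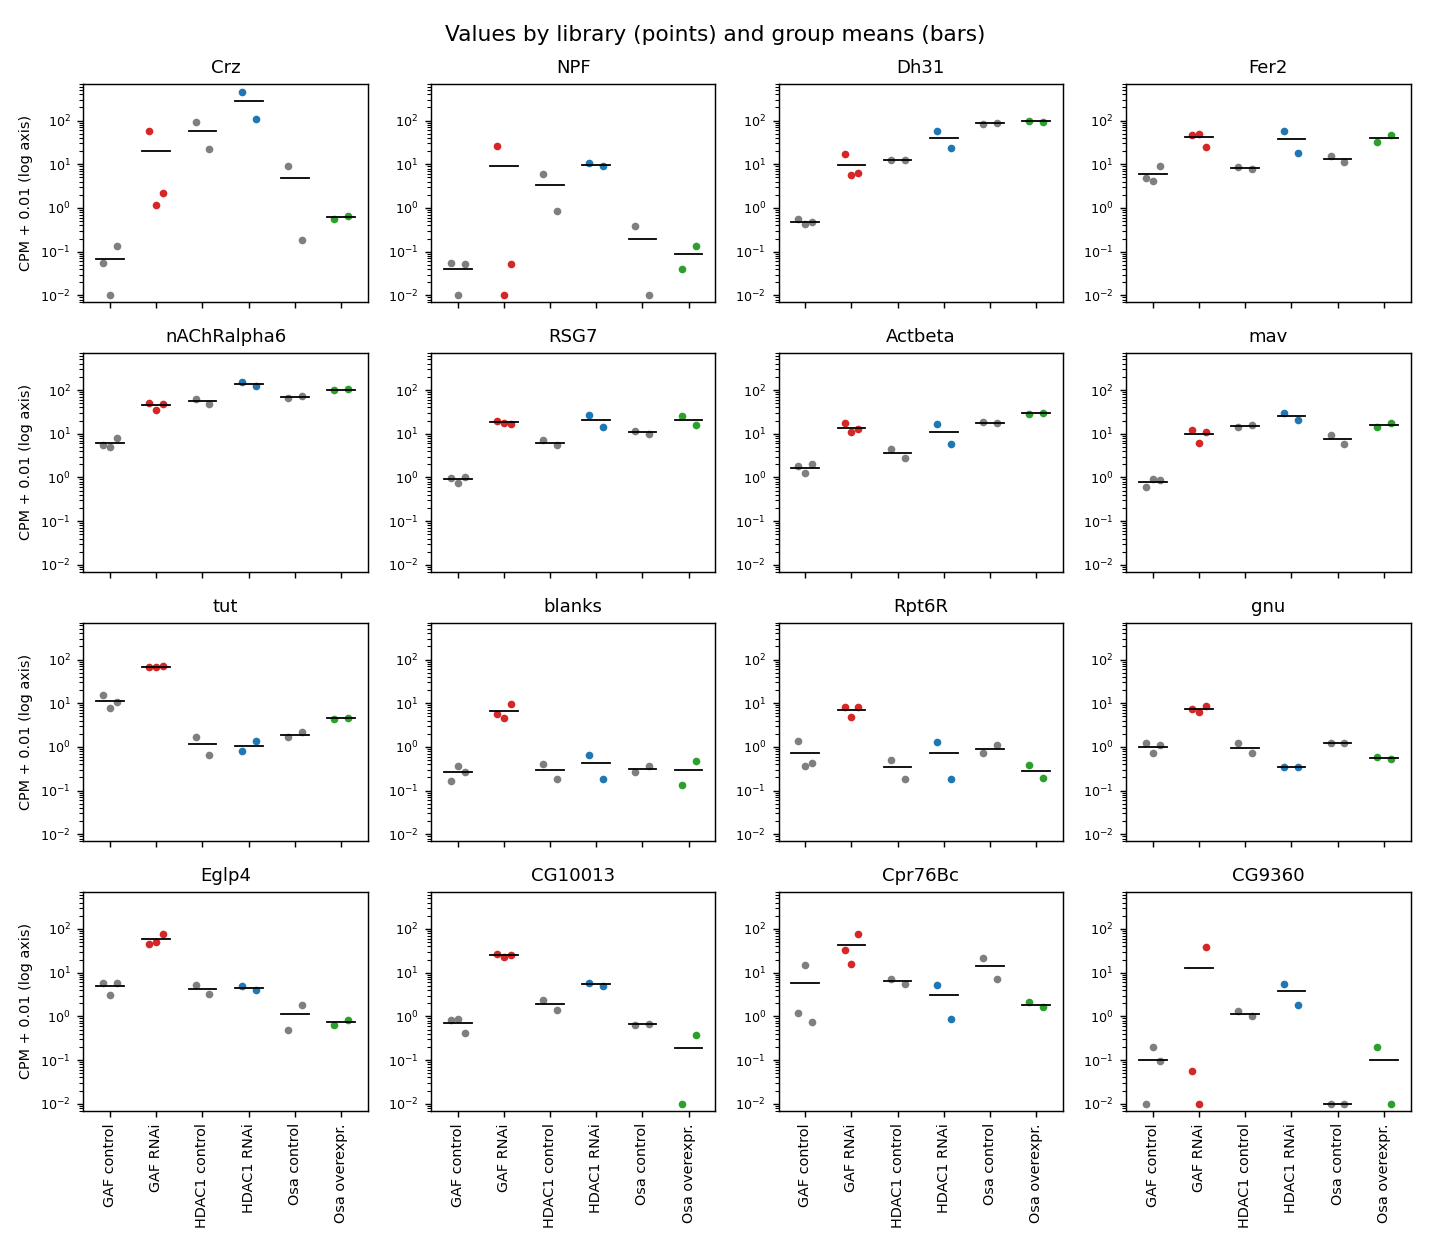
CPM plus 0.01 (log axis) of 16 members in each library (points) with group means (bars), by experiment and group, controls in grey. Crz, NPF and CG9360 have 1 GAF RNAi library far above the other 2, whereas tut, blanks, Rpt6R, gnu and Eglp4 have 3 GAF RNAi values that no library of the other 2 experiments reaches.

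The members tut, blanks, Rpt6R and gnu, grouped here for their known roles in the germline, testis or egg after their values were seen, stood highest in the GAF RNAi libraries. The gene tut (tumorous testis), which acts with Bam and Bgcn in the male germline, stood at 15.6, 7.82 and 10.5 CPM in GAF controls and 68.9, 67.6 and 70.9 CPM in RNAi. In the 8 libraries of the other experiments it lay between 0.645 and 4.63 CPM. The lowest GAF RNAi library was thus far above every library outside the experiment, and the GAF controls also lay above all of them. Its log2 fold change was -0.32 ± 0.78 in HDAC1 RNAi (adjusted p = 0.938) and 0.96 ± 0.44 in Osa (adjusted p = 0.144), both by edgeR.

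Blanks, a protein that binds double-stranded RNA and is needed in the testis, had levels of 0.159, 0.349 and 0.254 CPM in GAF controls and 5.55, 4.63 and 9.71 CPM in RNAi. Rpt6R, a testis paralog of a proteasome regulatory subunit, was 1.36, 0.349 and 0.424 CPM in controls and 8.31, 4.92 and 8.19 CPM in RNAi. The gene gnu (giant nuclei), which activates the PNG kinase in the egg and early embryo, was 1.23, 0.699 and 1.08 CPM in controls and 7.41, 6.30 and 8.50 CPM in RNAi. All 3 separated the GAF groups fully, and in the other 8 libraries none of them went above 1.26 CPM.

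Neither HDAC1 RNAi nor Osa overexpression gave a call for these genes. The gene gnu was below both controls in both experiments, at 1.19 and 0.703 CPM against 0.337 and 0.344 CPM in HDAC1 RNAi (-1.70 ± 0.85, edgeR adjusted p = 0.48) and at 1.20 and 1.20 CPM against 0.588 and 0.521 CPM in Osa overexpression (-1.38 ± 0.73, edgeR adjusted p = 0.201). Rpt6R was also below both controls in Osa overexpression, at 0.724 and 1.09 CPM against 0.371 and 0.184 CPM (-1.97 ± 0.86, edgeR adjusted p = 0.129). Its HDAC1 groups overlapped. These levels of gnu and Rpt6R were low, near 1 CPM or less. Summed over the 4 genes, the level was 9.22 to 18.4 CPM in GAF controls, 83.4 to 97.3 in GAF RNAi and 1.7 to 5.79 CPM in the other 8 libraries. A list of 46 other testis genes summed to 83.8 to 95.1 CPM in GAF controls and 249 to 280 CPM in GAF RNAi. Of these, 16 had no counts in the controls, 12 reached 1 CPM in RNAi, and 3 of the 12 were at least 6 times higher (RpS10a, eIF4E3 and ATPsynepsilonL, all left out by the rule). The sum includes these 3 genes, and their share of it is not given here. A list of 11 germline genes summed to 29.1 to 44.2 CPM in controls and 98.7 to 126 CPM in RNAi, and none of the 5 that reached 1 CPM was 6 times higher.

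In the aquaporin family, Eglp4, an entomoglyceroporin, was at 5.71, 3.15 and 5.72 CPM in GAF controls and 46.5, 50.1 and 77.7 CPM in RNAi. Its other 8 libraries lay between 0.472 and 5.14 CPM. Its log2 fold change was -0.17 ± 0.52 in HDAC1 RNAi (adjusted p = 0.949) and -0.92 ± 0.83 in Osa (adjusted p = 0.463), both by edgeR. Only the GAF RNAi libraries were high. The neurogenic gene bib (big brain), of the same family, was at 0.887, 0.349 and 0.466 CPM in controls and 5.14, 4.71 and 3.82 CPM in RNAi, and in Osa it was 1.98 and 1.20 CPM in controls and 6.59 and 2.64 CPM in overexpression (1.25 ± 0.56, edgeR adjusted p = 0.134).

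The 4 members CG9336 (current symbol bero), CG9338, CG14275 and atilla encode small Ly6-type membrane-anchored proteins. Summed, they were at 2.39 to 6.26 CPM in GAF controls and 35.5 to 54.7 CPM in GAF RNAi. CG9336 was the highest, with 5.57, 2.10 and 3.52 CPM in controls and 41.1, 33.3 and 26.6 CPM in RNAi. CG9338, which lies 4.2 kb from CG9336 on 2L, was at 0.0910, 0.214 and 0.0424 CPM in controls and 3.49, 4.18 and 3 CPM in RNAi. These neighbours were both fully separated in the GAF experiment.

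The Ly6 genes summed to 53.1 to 57.0 CPM in HDAC1 controls and 62.6 and 117 CPM in RNAi, mostly from CG9336. The sum was lower in the Osa experiment, at 12.3 to 18.6 CPM in controls and 14.7 to 19.1 CPM in overexpression. In the HDAC1 controls CG9338 was 3.80 and 4.01 CPM and atilla only 0.552 and 1.23 CPM. CG14275 was 9.67 and 13.3 CPM in HDAC1 controls and 9.71 and 38.4 CPM in RNAi. CG9336 was 43.0 and 34.6 CPM in HDAC1 controls and 43.3 and 70.8 CPM in RNAi (0.40 ± 0.45, edgeR adjusted p = 0.815). The gene atilla, a marker of the blood cells called lamellocytes, was at 0.136, 0.0777 and 0.0636 CPM in GAF controls and 5.76, 2.68 and 4.08 CPM in RNAi. All its GAF RNAi libraries were well above the controls. Of 11 blood cell markers, 2 reached 1 CPM in GAF RNAi, and the sum was 33.5 to 51.6 CPM in GAF controls and 34.8 to 44.0 CPM in RNAi. Their part in the level of atilla was not tested.

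Of the cuticle genes, Cpr76Bc was high in GAF RNAi and fell in Osa overexpression. Cpr76Bc, a cuticle protein with a chitin-binding domain, was at 1.18, 15.2 and 0.720 CPM in GAF controls and 33.8, 16.1 and 78.1 CPM in RNAi. The separation from the controls was narrow in replicate 2, where control and RNAi were almost equal. In the Osa experiment it was 21.6 and 7.02 CPM in controls and 2.07 and 1.62 CPM in overexpression, and it fell by 3.23 ± 0.54 on the log2 scale (edgeR adjusted p = 0.0068). The call was lost when overexpression replicate 1 (adjusted p = 0.267) or replicate 2 (adjusted p = 0.189) was left out, and in 1 fit of all 14 libraries (adjusted p = 0.256), all by edgeR.

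In HDAC1 RNAi Cpr76Bc was 5.19 and 0.859 CPM, below the 7.14 and 5.48 CPM of the controls (-1.47 ± 0.66, edgeR adjusted p = 0.406). Summed over 22 other cuticle and epidermis genes, the level was 23.6 to 54.2 CPM in GAF controls and 284 to 433 CPM in GAF RNAi, but 97.6% of the latter came from 7 genes of the Ccp84A cluster, which the rule left out (Ccp84Ab alone went from a mean of 20.5 to 261.7 CPM). The other 15 summed to 8.58 to 9.77 CPM in GAF controls and 7.62 to 8.76 CPM in GAF RNAi. In the HDAC1 experiment these 15 were at 77.5 to 118 CPM in controls and 20.1 to 31.9 CPM in RNAi, and in the Osa experiment at 5.73 to 7.4 CPM and 1.89 to 2.76 CPM. Their part in the level of Cpr76Bc was not tested. The laccase gene stw (straw), which acts in cuticle tanning, was at 1.66, 0.854 and 1.08 CPM in GAF controls and 10.9, 5.08 and 10.3 CPM in RNAi. Its HDAC1 groups overlapped, and in Osa overexpression it was above its controls in CPM but not after TMM scaling, at 4.64 and 5.42 CPM against 4.18 and 2.5 CPM (0.32 ± 0.42, edgeR adjusted p = 0.626).

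PCNA2 and Cyt-c1L, both paralogs of basic cell genes, differed in their reach. PCNA2, a paralog of the DNA replication clamp gene PCNA, was at 0.136, 0.252 and 0.254 CPM in GAF controls and 5.19, 2.44 and 1.93 CPM in RNAi. Like 21% of all genes in CPM, PCNA2 was higher without overlap in both other experiments. It was 3.37 and 2.58 against 9.90 and 7.76 CPM in HDAC1 (1.32 ± 0.49, edgeR adjusted p = 0.318), and 1.45 and 1.94 against 3.96 and 4.23 CPM in Osa (1.00 ± 0.46, edgeR adjusted p = 0.147). Cyt-c1L, a paralog of the cytochrome c1 gene, was at 0, 0.408 and 1.04 CPM in GAF controls and 4.39, 4.53 and 4.43 CPM in RNAi. Its 3 RNAi values were nearly the same, and no library outside the GAF experiment reached them.

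Genes without a well-described role included the members with the highest level in GAF RNAi. VepD was at 22.3, 12.3 and 16.5 CPM in GAF controls and 106, 108 and 126 CPM in RNAi. It was 56.3 and 39.5 CPM in HDAC1 controls and 112 and 108 CPM in RNAi (0.97 ± 0.40, edgeR adjusted p = 0.361), and 46.7 and 41.2 against 66.9 and 75.7 CPM in Osa (0.42 ± 0.17, edgeR adjusted p = 0.097). Its groups were apart in both of these experiments, as in the GAF experiment that chose it. Higher without overlap in both were also 21% of all genes in CPM and 13.4% after TMM scaling.

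CG31997 was at 16.8, 11.9 and 12.6 CPM in GAF controls and 119, 108 and 78.6 CPM in RNAi. It went opposite ways in the other experiments, at 48.8 and 20.8 CPM in HDAC1 controls and 17.1 and 11.9 CPM in RNAi (-1.55 ± 0.47, edgeR adjusted p = 0.224), and at 7.08 and 7.52 CPM in Osa controls and 10.9 and 23.9 CPM in overexpression (0.99 ± 0.38, edgeR adjusted p = 0.0907). The groups did not overlap in either. The difference of the responses was -2.57 ± 0.69, with an edgeR adjusted p of 0.686, and DESeq2 called it.

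CG10013 was among the steadiest, at 0.819, 0.874 and 0.403 CPM in GAF controls and 26.8, 22.4 and 26.0 CPM in RNAi. It was 2.38 and 1.41 against 5.89 and 4.87 CPM in HDAC1 (1.25 ± 0.55, edgeR adjusted p = 0.399) and 0.629 and 0.675 against 0 and 0.368 CPM in Osa (-2.06 ± 1.25, edgeR adjusted p = 0.264). Outside the GAF experiment that chose it, CG10013 was thus higher in HDAC1 RNAi and lower in Osa overexpression, without overlap in either. CG17124 was 5.69, 2.58 and 3.16 CPM in GAF controls and 32.0, 15.3 and 26.0 CPM in RNAi, and 29.7 and 29.4 CPM in HDAC1 controls and 97.4 and 131 CPM in RNAi (1.77 ± 0.42, edgeR adjusted p = 0.142). Its Osa groups overlapped. CG5194 was 0.318, 0.0388 and 0.191 CPM in GAF controls and 9.58, 8.37 and 11.7 CPM in RNAi, at most 0.716 CPM in the HDAC1 libraries, and had no counts in any Osa library.

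CG12531 was the second member that rose in the Osa experiment. It was 19.2 and 16 CPM in controls and 35.7 and 34.1 CPM in overexpression, a log2 fold change of 0.71 ± 0.20 (edgeR adjusted p = 0.0346). All 4 of those libraries were above the GAF experiment, where it was 0.432, 0.505 and 0.530 CPM in controls and 4.67, 4.98 and 1.66 CPM in RNAi. In HDAC1 it was 11.4 and 9.73 CPM in controls and 40.3 and 29.5 CPM in RNAi (1.46 ± 0.40, edgeR adjusted p = 0.184). The Osa call was lost without control replicate 1 (adjusted p = 0.127), without control replicate 2 (adjusted p = 0.287) and in 1 fit of all 14 libraries (adjusted p = 0.32), all by edgeR.

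Several members owed their place to 1 or 2 libraries or to almost no control counts. CG9360 was at 0, 0.194 and 0.0847 CPM in GAF controls and 0.0472, 0 and 38.1 CPM in RNAi, so RNAi replicate 3 alone was high. CG11382 was at 2.84, 0.155 and 2.12 CPM in controls and 37.2, 10.3 and 0.0205 CPM in RNAi. CG14655 was at 0.614, 0.252 and 0.657 CPM in controls and 0.425, 17.8 and 0.677 CPM in RNAi. The groups of these genes overlapped. CG14185 had no counts in the GAF controls and 4.72, 0.162 and 4.91 CPM in RNAi, at least 155-fold higher when the controls are set to 3 counts over the group. CG14598 was at 0, 0.116 and 0.0847 CPM in controls and 7.01, 3.19 and 0.554 CPM in RNAi. Its lowest RNAi library was still above all controls.

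The ribosomal precursor pre-rRNA:CR45847 was at 3.82, 2.93 and 3.64 CPM in GAF controls and 13.9, 5.26 and 54.1 CPM in RNAi, highest in replicate 3. It shares 76.2% of its exonic bases with other genes on the same strand, so its count is uncertain. The pseudogene CR14033 was at 2.23, 2.14 and 4 CPM in controls and 23.0, 12.9 and 17.7 CPM in RNAi. CR12842, another pseudogene, was at 0.0910, 0 and 0.0212 CPM in controls and 3.66, 3.51 and 3.78 CPM in RNAi, a pooled ratio of 104 (95% exact interval 44.3 to 322, for counting error only). Neither pseudogene's groups overlapped, and reads of a pseudogene may be shared with its parent gene.

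Across the other experiments the members differed in the level of their controls. These counts use the GAF values that chose the members and are given as a description only. For 28 members all 4 controls of the HDAC1 and Osa experiments lay above all 3 GAF controls (23.8% of genes with at least 3 CPM in GAF RNAi), and for 8 none did (29.9%). The mean of the HDAC1 controls was at or above the GAF RNAi mean for 15 members, and that of the Osa controls for 12. Members for which both held included nAChRalpha6, CG17124, Dh31, CG14312, CG6044, CG43901 and CG12531. The shares of all 6569 genes with at least 3 CPM in GAF RNAi were 48.8% for the HDAC1 controls and 67.1% for the Osa controls. At the other end, 16 members had all 8 other libraries below all 3 GAF RNAi libraries (9.65% of the same genes), among them CG31997, tut, Eglp4, CG10013, CG5194, gnu, Rpt6R, blanks and Cyt-c1L. Library levels across experiments also carry differences between the experiments in collection and amplification, which cannot be told apart from genotype. Of 46 members tested in both experiments, 14 were higher without overlap in CPM in both HDAC1 RNAi and Osa overexpression, beside 21% of all genes, and 13 after TMM scaling, beside 13.4%. They included Fer2, RSG7, Actbeta, mav, nAChRalpha6, VepD and PCNA2, and the one lost with TMM was Dh31. Another 3 were lower in both on either scale (Cpr76Bc, gnu and CG14655), beside 7.15% of all genes in CPM and 12.2% after TMM scaling.

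By place in the genome, the 54 members were spread over all large arms. There were 8 on X (14.8% of members, beside 17.4% of genes with at least 3 CPM in GAF RNAi), 13 on 2L (24.1% beside 17.2%), 6 on 2R (11.1% beside 20.1%), 8 on 3L (14.8% beside 19.9%) and 14 on 3R (25.9% beside 24.1%). Chromosome 4, a small and largely heterochromatic chromosome, held 4 members (CG31997, Actbeta, mav and CG1674), or 7.41% beside 1.16%. Positions are those of the BDGP6 annotation, the assembly named dm6: CG31997 at bases 154654 to 156060, Actbeta at 1077331 to 1084796, mav at 623219 to 626031 and CG1674 at 230730 to 245903 of chromosome 4. Within 20 kb of another member lay 6 genes in 3 pairs. VepD and CG6044 overlap by 16 bases on 2R, so reads at that edge could belong to either. CG9336 and CG9338 are 4.2 kb apart on 2L, and CR12842 and CG33914 are 79 bases apart on 2R. The gene gnu lies 41.3 kb from Trl on 3L.

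Close to the thresholds, the members with the lowest ratios were tut at 6.11, CG8620 at 6.36 and CG14312 at 6.40 times, and the genes just outside were CG10713 at 5.98, Fas3 at 5.91 and Sema2b at 5.88 times. By level, CG3726 at 3.01, CG31279 at 3.14 and PCNA2 at 3.19 CPM in GAF RNAi were just inside, and CG43222, tomboy40 and Pdfr, each at 2.99 CPM, just outside. CG8620, near the ratio threshold, was 3.50, 0.641 and 0.508 CPM in GAF controls and 9.46, 8.69 and 11.4 CPM in RNAi. In HDAC1 it was 20.5 and 16.9 CPM in controls and 39.5 and 53.0 CPM in RNAi (1.12 ± 0.43, edgeR adjusted p = 0.328). In Osa it was 0.0944 and 0.235 against 0.680 and 1.69 CPM (2.55 ± 0.95, edgeR adjusted p = 0.0814). CG8620 was thus higher without overlap in both treatments outside the GAF experiment that chose it, as were 21% of all genes in CPM and 13.4% after TMM scaling. Neither test called it, and its Osa controls held only 3 and 8 counts.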

How the data were processed

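The deposited table holds raw counts per gene and library, whole numbers with no normalization. The submitters' processing notes name the genome build dm6 and, without their order, featureCounts 2.0.3, HISAT2 2.2.1, SAMtools 1.6 and Trim Galore 0.6.10. Annotation, strand setting and handling of multi-mapping reads are not stated there. The kits named in the labels do not mark strand.

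CPM were computed from library totals, and groups were taken from sample titles. In the HDAC1 and Osa experiments, each with its own controls, genes were filtered with filterByExpr (minimum count 10, minimum total 15), scaled by TMM and tested with edgeR 4.0.16 (R 4.3.3, robust quasi-likelihood test, Benjamini-Hochberg adjustment over all genes tested, threshold 0.05). The difference of the responses was a contrast in 1 fit of those 4 groups. Errors written after ± are standard errors derived from the test, as the absolute log2 fold change over the square root of its F statistic. DESeq2 1.42.0 and limma 3.58.1 (voom) were alternatives. The scripts were tested on simulated data.

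The members, gene lists and role groups were chosen with earlier results of these data known. Named were the 15 members highest in GAF RNAi, the 10 with the highest ratios, those called in a test, those near the ratio threshold or within 20 kb of another member, and the targeted genes. The others named (such as Dh31, Actbeta, mav, dpr18, bib, stw, blanks, Rpt6R, gnu and PCNA2) were chosen by function after their values were seen. Symbols were matched to the BDGP6 annotation, which gave 1 gene for 17772 of 17868 and for all 54 members.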

Additional observations from a re-analysis of the deposited data

How the results depend on the processing

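The number of members depended on the thresholds: 122 genes met a ratio of at least 4, 24 a ratio of at least 10, 124 a level of at least 1 CPM and 19 a level of at least 10 CPM. Requiring the ratio in every same-numbered pair, a form of replicate block, left 27. TMM scaling gave 54 genes (53 shared with the 54 members), DESeq2-type scaling 55, the median over libraries 59 (43 shared), and leaving out 1 GAF library 47 to 67.

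In HDAC1 RNAi, where no member was called, no filter gave 4, DESeq2 5, the replicate block 4, and 1 fit of all 14 libraries 6, and leaving out 1 library gave 0 to 15. Over all genes, 10 calls became 0 with library totals alone, 309 with no filter, 294 with DESeq2, 2 with limma-voom, 241 with the replicate block, 345 in 1 fit of all libraries, and 36 to 3621 with 1 library left out. With no filter, 7.41% of the members tested in HDAC1 RNAi were called, beside 1.92% of 16058 genes. DESeq2 called 9.62% beside 2.85%, and the replicate block 7.69% beside 2.34%, both over 10299 genes. The fit of all 14 libraries called 11.1% of members, beside 3.09% of 11181 genes. In Osa overexpression the 3 member calls (6.38% of members tested, beside 21.1% of all genes) became 12 with library totals alone (25.5% beside 27.3%). No filter gave 8 (15.1% beside 19.3%), DESeq2 6 (12.8% beside 26.7%) and the replicate block 4 (8.51% beside 20%). In 1 fit of all libraries the member calls were 0, beside 3.17% of all genes. The 1929 calls over all genes became 354 in 1 fit of all libraries and 498 to 3535 with 1 left out, and library totals alone turned 811 higher and 1118 lower into 1963 higher and 538 lower. For the difference of the responses, members called went from 0 to 3 with no filter, 1 with DESeq2, 0 with the replicate block and 0 to 3 with 1 library left out. All genes called there went from 1 to 118 with no filter, 48 with DESeq2, 0 with limma-voom, 21 with the replicate block and 1 to 1049 with 1 left out. The difference was tested in 54 members among 16281 genes with no filter, and in 53 among 10695 with DESeq2 or the replicate block. The cause of these shifts in the number of calls was not tested. Fits that left out a library kept 1 sample in a group, which is assumed to vary like the others.

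Of 12 alternatives each, Fer2 kept its Osa call in 10, CG12531 in 9 and Cpr76Bc in 9, and none of the 3 changed direction in any of them. TMM scaling of CPM, chosen after seeing the data, moved members higher without overlap from 25 to 24 in HDAC1 RNAi and from 23 to 20 in Osa (lost were CG9336, Dh31, stw and CR12842), and members lower from 7 to 7 and from 7 to 8. Correlations of the deviations of same-numbered libraries were 0.0079, -0.000333 and -0.137 for the GAF pairs, 0.144 for HDAC1 and 0.015 for Osa. These values do not settle whether such libraries are paired. In HDAC1 RNAi, where the correlation was the highest, the replicate block raised the calls over all genes from 10 to 241. A planned count of GAGAG in member promoters was not run, as no promoter sequence was used here. Depth limits the rare members most: several have single-digit counts in the GAF controls, so their ratios are imprecise.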
